A study of Mus musculus with 7 samples.

Results

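The imprinted cluster from Dlk1 to Dio3 on mouse chromosome 12 was examined in hematopoietic stem cells (HSCs) that had lost Cebpa, the gene for the transcription factor C/EBPα. Every gene that lies from Dlk1 to Dio3, both included, and has a probe set annotated to it alone was taken as a member, small nucleolar RNA genes included. This gave 48 members of the 103 genes annotated there and of the 19938 genes tested on the arrays. The members are 3 protein-coding genes, 2 long noncoding RNA genes, 3 small nucleolar RNA genes and 40 microRNA genes. Mirg, a noncoding host gene of microRNAs, had no probe set of its own and was not analysed here.

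HSCs were sorted from bone marrow of female C57BL/6 mice as cells lacking lineage markers and CD48 and carrying Sca1, c-Kit and CD150. Cebpa Δ/Δ mice (n = 4) carried loxP-flanked Cebpa alleles (flox/flox) together with the Mx1Cre transgene, and Cebpa fl/fl mice (n = 3) carried the flanked alleles without it. The Mx1 promoter answers to interferon in many cell types, so that Cre was not restricted to HSCs, and pIpC, which induces interferon, was given to all mice at 10 to 12 weeks of age, with the bone marrow taken at day 18. RNA was amplified and hybridised to Affymetrix Gene ST arrays, each taken as 1 mouse, and values are log2 intensities. The targeted gene measured 5.11, 5.24, 5.27 and 5.27 in Cebpa Δ/Δ and 5.54, 5.75 and 5.63 in Cebpa fl/fl, a log2 difference of -0.41 ± 0.07 (SE), and the genotypes did not overlap. In bulk samples fewer cells of a type and less RNA per cell cannot be told apart.

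In the Dlk1 to Dio3 cluster the copy of a gene that is used depends on the parent it came from. Dlk1, Rtl1 and Dio3 are read from the paternal chromosome, whereas Meg3, Rian, Mirg and the small RNAs processed from them are read from the maternal one, under control of a methylated region between Dlk1 and Meg3. The cluster is best known from the embryo, placenta and muscle, and its maternal RNAs are also known from long-term HSCs. The arrays do not tell the parental alleles apart.

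The microRNAs on which the results turn are shown with their mature sequences, since several are close copies of each other. All 40 microRNA members were found in the RefSeq table (build GRCm38.p6), with 76 mature sequences of 20 to 26 bases and 74 distinct seeds, all on the plus strand. Capitals mark the seed, bases 2 to 8 from the 5′ end, by which a microRNA pairs with its targets. Mir377, with the largest difference of the microRNAs, gives these 2 strands, of which the 3p strand lies at chr12:109740553-109740574:
mmu-miR-377-5p: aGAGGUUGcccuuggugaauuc
mmu-miR-377-3p: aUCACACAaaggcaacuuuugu
The miR-376 genes follow each other, and their family is known for editing of adenosines in its primary transcripts. Mir376b (its 5p strand at chr12:109723471-109723492) and Mir376c share the 5p seed and differ there only by G19U, counted from the 5′ end of the miR-376b strand. The 3p strands of Mir376b and Mir376a differ within the seed by A4G and outside it by C13A and U20G.
mmu-miR-376b-5p: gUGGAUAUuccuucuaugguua
mmu-miR-376c-5p: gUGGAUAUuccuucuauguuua
mmu-miR-376b-3p: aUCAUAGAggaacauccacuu
mmu-miR-376a-3p: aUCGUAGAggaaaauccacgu
Mir543 (3p strand at chr12:109717304-109717325) and Mir495 end in the same 12 bases and differ by U6A and U7A in the seed and by G9A and C10U after it. The only other seed that 2 of the 76 strands share is that of miR-379-3p and miR-411-3p.
mmu-miR-543-3p: aAACAUUCgcggugcacuucuu
mmu-miR-495-3p: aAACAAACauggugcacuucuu
mmu-miR-379-3p: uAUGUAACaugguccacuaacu
mmu-miR-411-3p: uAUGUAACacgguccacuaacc
mmu-miR-409-3p: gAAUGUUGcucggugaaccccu
mmu-miR-485-3p: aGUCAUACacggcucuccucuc

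The cluster was selected on its log2 differences between these same Cebpa Δ/Δ and Cebpa fl/fl arrays, its members by position, so the values in that comparison are a description and no test of the cluster. Of the 48 members, 47 had a higher mean in Cebpa Δ/Δ than in Cebpa fl/fl HSCs, and the median log2 difference was 0.42, whereas it was 0.00 over all genes. The mean over the 48 members was 4.33, 4.65, 4.49 and 4.69 on Cebpa Δ/Δ arrays 1 to 4 and 3.97, 3.92 and 3.96 on Cebpa fl/fl arrays 1 to 3. By the study's cut-offs of more than 1.5-fold and p below 0.05 without adjustment, 9 members were higher, against 1.57% of all genes, and 0 were lower, against 0.617% of all genes. All arrays of Cebpa Δ/Δ lay above all arrays of Cebpa fl/fl for 11 members, against 3.51% of all genes, and the reverse held for 0, against 2.46% of all genes. With limma and Benjamini-Hochberg adjustment over all genes, 0 members passed an adjusted p of 0.05 (0.0% of all genes), and the smallest adjusted p was 0.276. An unadjusted limma p under 0.05 was seen for 10 members, and over all 19938 genes for 877 upward and 615 downward. The highest value of a member fell on Cebpa Δ/Δ arrays 1 to 4 for 4, 14, 12 and 16 members and on a Cebpa fl/fl array for 0. For the other 2, Mir673 and Dio3, arrays of both genotypes tied.

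Among the paternally expressed genes, Dlk1 and Rtl1 were higher in Cebpa Δ/Δ and Dio3 differed by 0.02 on the log2 scale. Dlk1 encodes a transmembrane protein related to the Delta ligands of Notch that keeps precursor cells from differentiating. It measured 8.61, 9.97, 8.05 and 8.80 in Cebpa Δ/Δ HSCs and 5.56, 6.91 and 5.98 in Cebpa fl/fl HSCs. The lowest Cebpa Δ/Δ array lay above the highest Cebpa fl/fl array, although arrays of one genotype differed by more than 1 log2 unit. The log2 difference was 2.70 ± 0.51 (SE, 95% interval 1.47 to 3.94), or 6.51-fold. Rtl1, a retrotransposon-derived gene needed in the placenta, measured 5.49, 5.45, 5.65 and 5.50 in Cebpa Δ/Δ and 4.97, 5.09 and 4.74 in Cebpa fl/fl. Its arrays did not overlap either and were closely spaced, and the log2 difference was 0.59 ± 0.10 (SE), just above the 1.5-fold threshold of 0.58. The gene holds 8 of the microRNA members within its span, which are transcribed opposite to it, and the strand that the probes read is not known here.

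Dio3 closes the cluster at its far end and encodes the deiodinase that inactivates thyroid hormone. It measured 4.12, 4.12, 4.05 and 4.12 in Cebpa Δ/Δ and 4.12, 4.12 and 4.00 in Cebpa fl/fl. The values of both genotypes lay under the 25th percentile of all values (4.12), and 5 of the 7 arrays held the same value. The interval of the difference ran from -0.10 to 0.14 on the log2 scale, but at the low end of the scale a difference in Dio3 RNA could not be read from it.

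**Figure D1:**
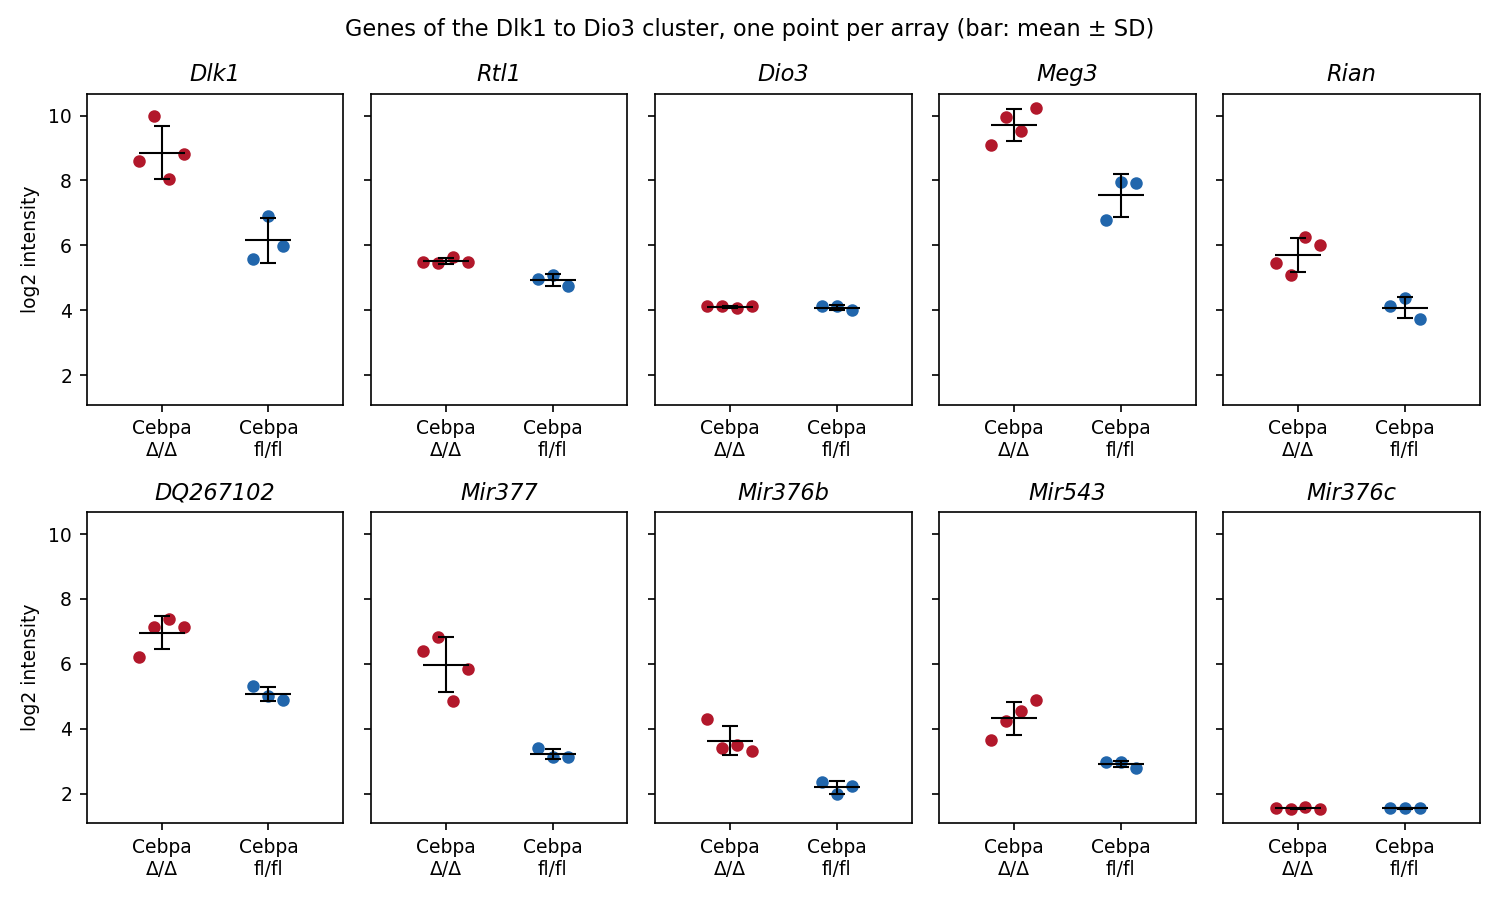
Log2 intensity (vertical axis) of 10 members in Cebpa Δ/Δ (red, n = 4) and Cebpa fl/fl (blue, n = 3) HSCs, each point 1 array, with bars for the mean ± SD. The genotypes lie apart for Dlk1, Rtl1, Meg3, Rian, DQ267102, Mir377, Mir376b and Mir543 and overlap for Dio3 and Mir376c.

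The maternally expressed noncoding RNAs were higher in Cebpa Δ/Δ as well. Meg3, a long noncoding RNA that starts the maternal transcript, measured 9.11, 9.96, 9.54 and 10.24 in Cebpa Δ/Δ and 6.76, 7.94 and 7.91 in Cebpa fl/fl. All Cebpa Δ/Δ arrays were above 9 and all Cebpa fl/fl arrays below 8, with array 1 the lowest within each genotype. The log2 difference was 2.17 ± 0.39 (SE, 95% interval 1.24 to 3.10), or 4.51-fold. Rian, the next noncoding RNA and the host of many small nucleolar RNAs, measured 5.46, 5.10, 6.26 and 6.01 in Cebpa Δ/Δ and 4.12, 4.38 and 3.74 in Cebpa fl/fl. Its log2 difference was 1.62 ± 0.31 (SE), without overlap, and was 1.06 with 16 added before log2. Rian was highest on Cebpa Δ/Δ array 3, on which Dlk1 was lowest, so that the members did not share an order of arrays within the genotype.

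Small nucleolar RNAs guide the chemical modification of other RNAs, but those of this cluster have few known targets. DQ267102, a small nucleolar RNA gene inside Rian, measured 6.22, 7.13, 7.38 and 7.13 in Cebpa Δ/Δ and 5.32, 5.02 and 4.88 in Cebpa fl/fl, a log2 difference of 1.89 ± 0.28 (SE) or 3.71-fold. The other 2 small nucleolar RNA genes measured overlapped between genotypes. DQ267101, also inside Rian, averaged 2.75 ± 0.30 in Cebpa Δ/Δ and 2.40 ± 0.10 in Cebpa fl/fl (SD, n = 4 and 3), and AF357341 averaged 3.36 ± 0.16 in Cebpa Δ/Δ and 3.26 ± 0.04 in Cebpa fl/fl. The small nucleolar RNAs of Rian form a family of similar copies, and whether their probe sets read each other's transcripts was not tested.

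Of the 40 microRNA genes, 4 were past the study's thresholds in Cebpa Δ/Δ, all of them in the stretch from Mir379 onward, which holds 30 members. Mir377, which lies inside Mirg, measured 6.39, 6.83, 4.85 and 5.84 in Cebpa Δ/Δ and 3.40, 3.13 and 3.13 in Cebpa fl/fl. The Cebpa fl/fl arrays lay close together and the Cebpa Δ/Δ arrays spread over nearly 2 log2 units, with array 3 the lowest. The log2 difference was 2.75 ± 0.45 (SE). Its Cebpa fl/fl values were at the low end of the scale, and the difference was 1.86 with low values raised to the 25th percentile of all values and 1.67 with 16 added before log2. Mir376b measured 4.30, 3.41, 3.50 and 3.32 in Cebpa Δ/Δ and 2.34, 1.98 and 2.25 in Cebpa fl/fl, a log2 difference of 1.44 ± 0.25 (SE). Mir543 measured 3.65, 4.22, 4.53 and 4.87 in Cebpa Δ/Δ and 2.96, 2.99 and 2.80 in Cebpa fl/fl, a log2 difference of 1.40 ± 0.27 (SE). For these 3 genes the genotypes did not overlap. Raising low values to the 25th percentile of all values (4.12) left log2 differences of 0.32 for Mir543 and 0.04 for Mir376b and ended both calls, and adding 16 before log2 ended that of Mir376b, at 0.48. Mir409, also inside Mirg, measured 4.35, 4.80, 3.76 and 4.39 in Cebpa Δ/Δ and 3.83, 3.21 and 3.83 in Cebpa fl/fl, and array 3 of Cebpa Δ/Δ fell among the Cebpa fl/fl arrays. Its log2 difference of 0.70 ± 0.27 (SE) lost its call when any array other than Cebpa Δ/Δ 3 was left out.

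The near copies of these microRNAs had probe sets of their own, several of them at the low end of the scale in both genotypes, and differences between copies were not tested. Mir376c, which shares the 5p seed of Mir376b, was the only member with a lower mean in Cebpa Δ/Δ, at 1.55 ± 0.02 against 1.55 ± 0.01 in Cebpa fl/fl (SD, n = 4 and 3), a log2 difference of -0.01. Mir376a measured 2.41, 1.68, 2.55 and 3.68 in Cebpa Δ/Δ and at most 1.72 in Cebpa fl/fl (1.60 ± 0.11, SD, n = 3). Cebpa Δ/Δ array 2 was within the range of Cebpa fl/fl, and the log2 difference of 0.98 had an interval from -0.06 to 2.02. Mir495, which shares its last 12 bases with miR-543-3p, averaged 2.08 ± 0.55 in Cebpa Δ/Δ and 1.99 ± 0.49 in Cebpa fl/fl (SD, n = 4 and 3). Mir379 averaged 2.43 ± 0.69 in Cebpa Δ/Δ and 1.86 ± 0.14 in Cebpa fl/fl, and Mir411, with which it shares a 3p seed, averaged 2.01 ± 0.11 in Cebpa Δ/Δ and 1.97 ± 0.02 in Cebpa fl/fl. The probe sets lie in the precursors, and the arrays do not tell the primary transcript, the hairpin and the mature microRNA apart.

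Another 6 microRNA genes had a mean more than 1.5-fold higher in Cebpa Δ/Δ with an unadjusted p over 0.05, namely Mir154, Mir376a, Mir369, Mir380, Mir382 and Mir434. Of these, Mir154 and Mir382 did not overlap between genotypes. Mir154 measured 2.63, 2.75, 4.45 and 3.24 in Cebpa Δ/Δ and 2.30, 2.03 and 2.55 in Cebpa fl/fl, with array 3 the highest. In all 6 a single Cebpa Δ/Δ array stood more than 1 log2 unit above the other 3. It was array 2 for Mir380 (4.43) and Mir382 (5.17), array 3 for Mir154 and array 4 for Mir369 (4.19), Mir376a (3.68) and Mir434 (4.77). Mir485 was just outside the thresholds, with 5.75, 5.88, 5.35 and 5.20 in Cebpa Δ/Δ and 4.74, 5.07 and 5.18 in Cebpa fl/fl, no overlap and a log2 difference of 0.55 under the 1.5-fold threshold. The other 30 members had log2 differences from 0.01 to 0.57. They include all the microRNAs inside Rtl1 except Mir434, among them Mir127, whose transcript opposes Rtl1, with 5.65 ± 0.19 in Cebpa Δ/Δ and 5.38 ± 0.11 in Cebpa fl/fl (SD, n = 4 and 3).

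**Figure D2:**
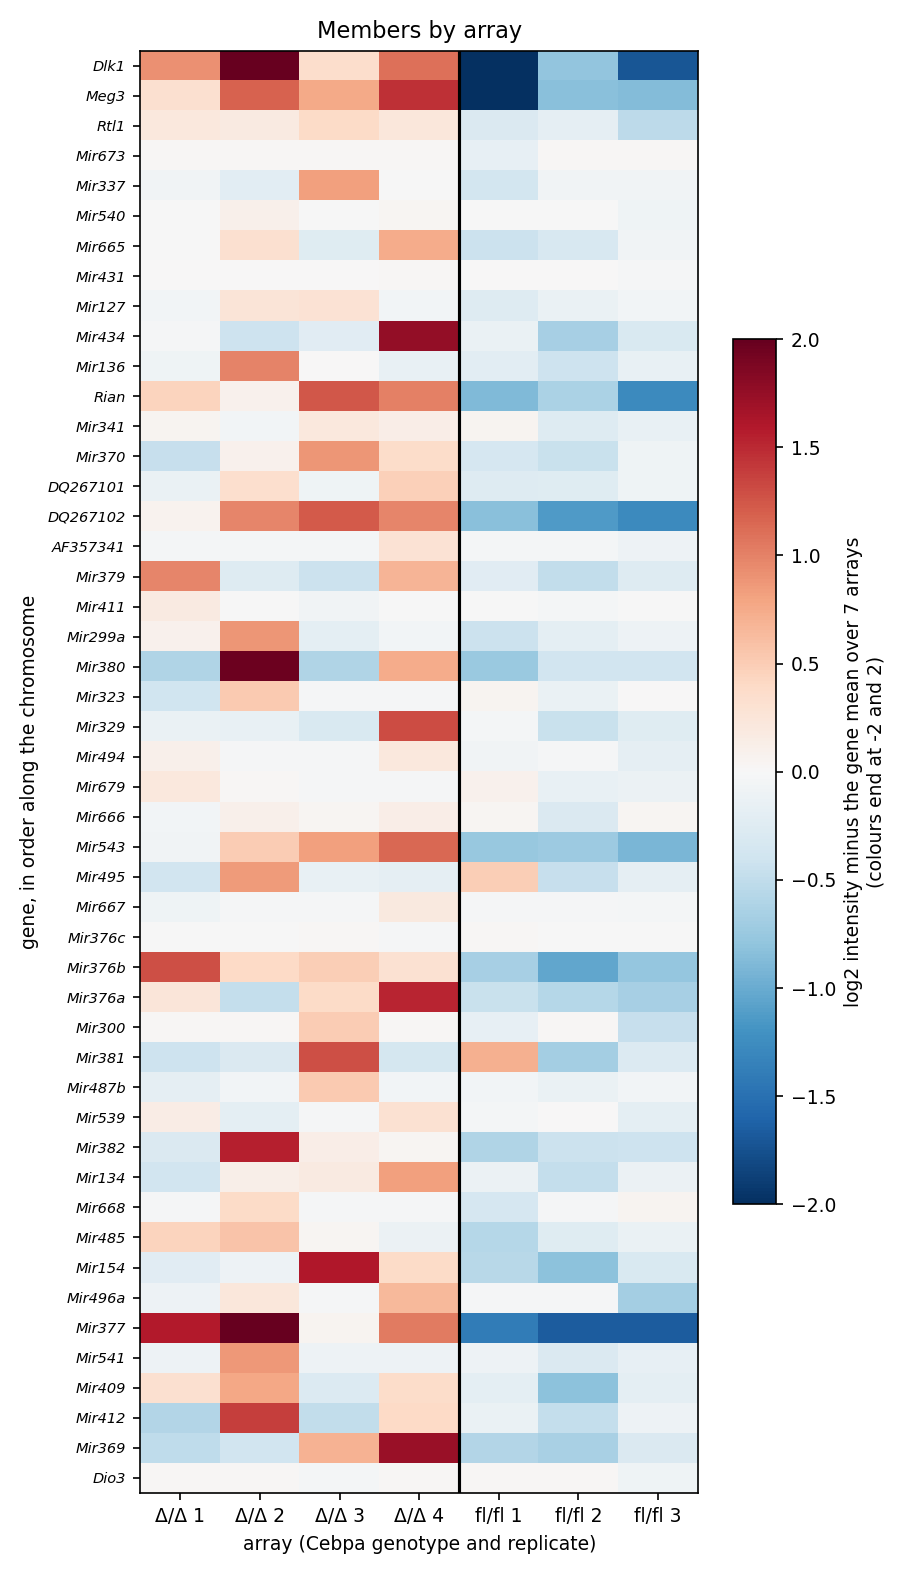
All 48 members (rows, in their order along the chromosome) on the 7 arrays (columns, Cebpa Δ/Δ left of the black line and Cebpa fl/fl right of it), coloured by log2 intensity minus the mean of the gene over the 7 arrays. Dlk1, Meg3, Rian, DQ267102, Mir377 and Mir376b lie above their mean on all Cebpa Δ/Δ arrays and below it on all Cebpa fl/fl arrays. Rian on Cebpa Δ/Δ array 2, DQ267102 on array 1 and Mir377 on array 3 lie so close to the mean that they are nearly white. Many microRNA genes are red on 1 or 2 Cebpa Δ/Δ arrays.

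Many members gave little signal. In Cebpa fl/fl, 29 of the 48 members averaged under 4.12, the 25th percentile of all values, 5 of the 9 members past the thresholds among them. On 17 members at least 3 arrays held the same value within a tolerance of 1e-05, and those members had log2 differences from -0.01 to 0.43 and 0 calls. Of all 19938 genes, 7864 had at least 3 equal values. Of the 10 members above the median gene, 3 were past the thresholds, namely Dlk1, Meg3 and DQ267102, and 10 of 10 had a higher mean in Cebpa Δ/Δ. The level was the mean over all 7 arrays, with the median gene at 5.86. DQ267102 and Mir134 averaged 5.07 and 5.84 in Cebpa fl/fl and passed this filter only through their Cebpa Δ/Δ arrays. These counts are therefore a description. Among all 9969 genes above the median, 235 (2.36%) were past the thresholds upward.

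The difference was also described along the chromosome. Of the 10 nearest genes measured on either side of the cluster, 0 of 20 were past the thresholds upward and 1 downward, with a median log2 difference of -0.01 and a highest of 0.40. The exception was Wdr25, next but one to the cluster on the Dlk1 side, with 5.63, 5.63, 5.30 and 5.63 in Cebpa Δ/Δ and 7.05, 6.13 and 5.94 in Cebpa fl/fl. Begain, next to the cluster on the Dlk1 side, had a log2 difference of -0.04. Ppp2r5c, a subunit of protein phosphatase 2A next to it on the Dio3 side, measured 8.75, 8.61, 8.88 and 8.56 in Cebpa Δ/Δ and 8.32, 8.51 and 8.49 in Cebpa fl/fl. Its arrays did not overlap, and the log2 difference of 0.26 (95% interval 0.03 to 0.49) was under the 1.5-fold threshold. Within the cluster the differences over 1 log2 unit were those of Dlk1, Meg3, Rian, DQ267102, Mir543, Mir376b and Mir377, with members of smaller difference between them. Of the 7 members inside Mirg, 4 were over 1.5-fold higher, and the median log2 difference of the 7 was 0.70. Only 2 of them, Mir377 and Mir409, were past the thresholds upward, against 1.57% of all genes.

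**Figure D3:**
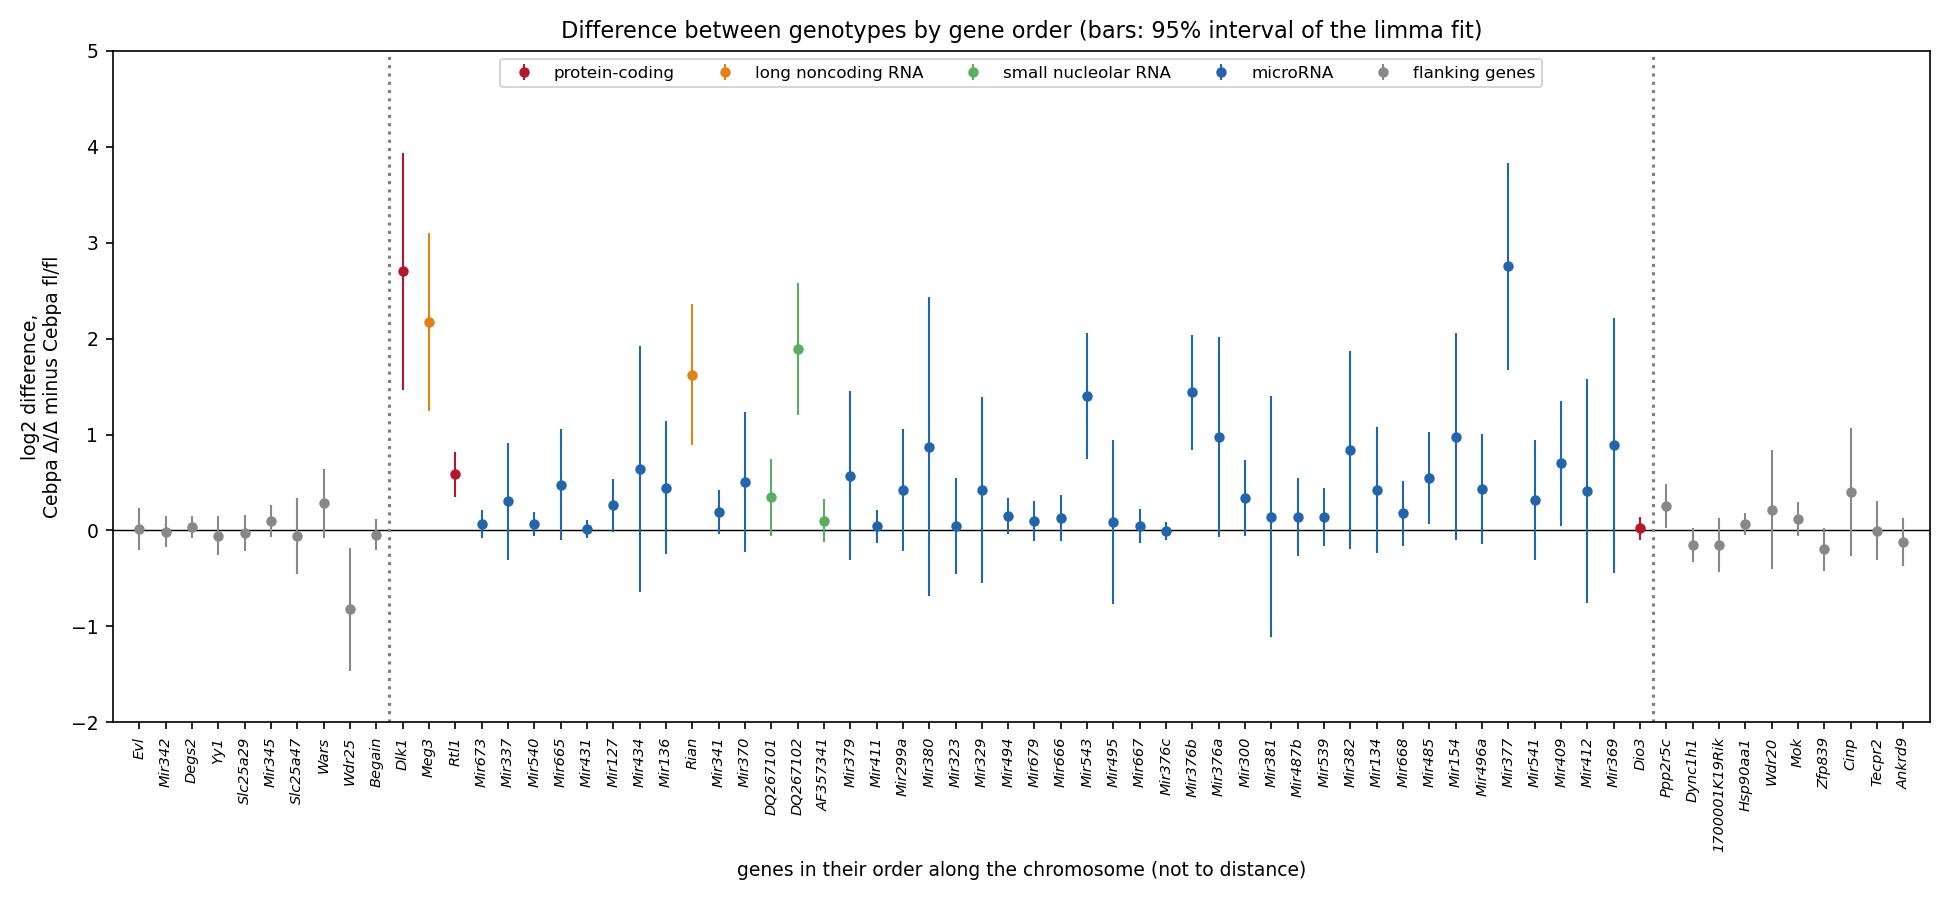
Log2 difference, Cebpa Δ/Δ minus Cebpa fl/fl (vertical axis, bars the 95% interval of the fit), for 10 flanking genes, the 48 members and 10 further flanking genes in their order along the chromosome, without regard to distance. Values of 1.40 to 2.75 stand at intervals from Dlk1 to Mir377, Dio3 lies near 0, and the flanking genes lie between -0.82 and 0.40.

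MicroRNA genes elsewhere in the genome, most with the same kind of short, dim probe set, had log2 differences centred near 0. Chosen by name, they included the host genes Mir100hg, Mir17hg, Mir99ahg and Mir670hg. Of 260 such genes, 0 were past the thresholds upward and 7 downward, and their median log2 difference was -0.04. The 40 microRNA members of the cluster had a median of 0.38, with 39 of 40 positive. Elsewhere, 102 of 260 were positive. A log2 difference over 1 was seen for 3 of the 40 and for 2 of the 260, Mir144 and Mir181a-1, 2 genes named here because the count was small. One under -1 was seen for 0 of the 40 and for 6 of the 260. The lowest p-values among microRNA genes elsewhere were those of Mir1a-2, Mir677 and Mir99a, with log2 differences of -1.45 ± 0.34, -0.87 ± 0.21 and -1.29 ± 0.34 (SE).

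**Figure D4:**
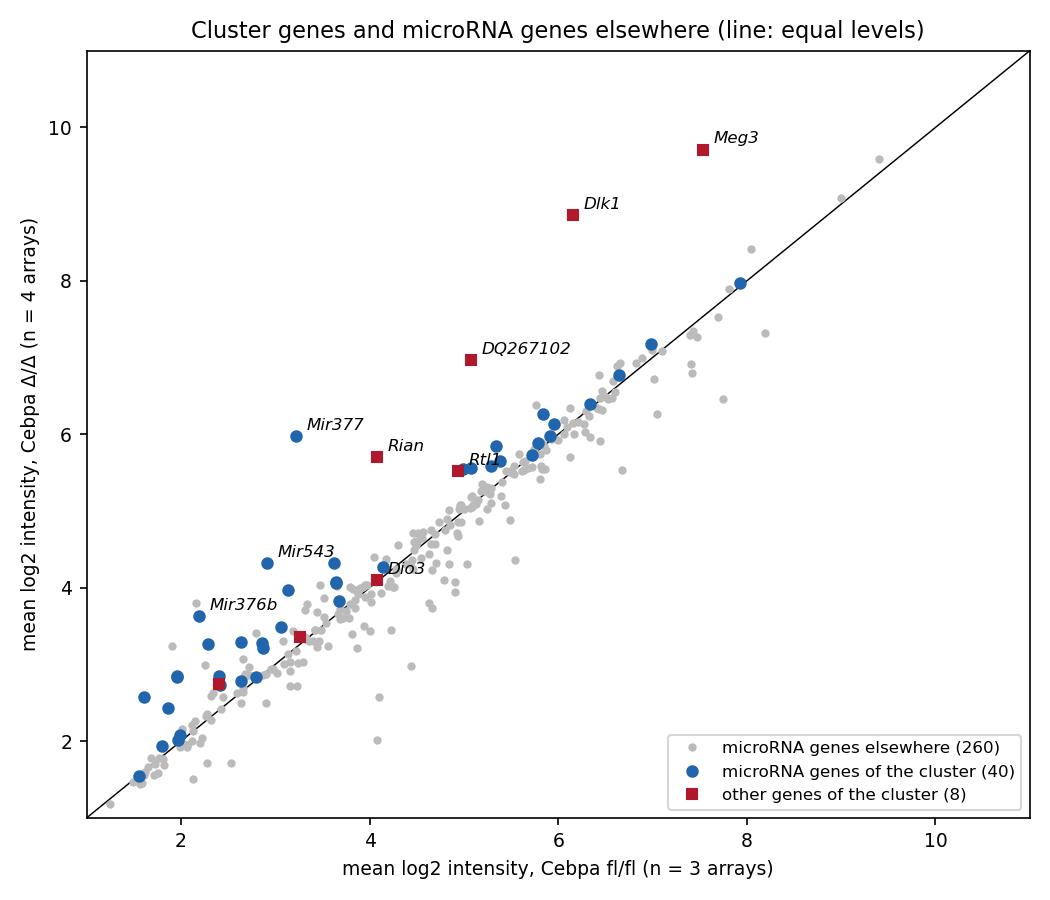
Mean log2 intensity in Cebpa Δ/Δ (vertical axis, n = 4) against Cebpa fl/fl (horizontal axis, n = 3) for the 40 microRNA members (blue circles), the other 8 members (red squares) and 260 microRNA genes elsewhere (grey points), with a line of equal levels. Meg3, Dlk1, DQ267102, Rian and Mir377 lie 1.62 to 2.75 above the line, and the grey points scatter about it.

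Genes that could act on the cluster or answer to it were measured as well. Of 25 regulators of imprinting (proteins that set, keep or remove DNA methylation, and Polycomb genes), 0 were higher and 1 was lower at the study's thresholds, with a median log2 difference of 0.01. The gene was Zfp57, a zinc finger protein that protects methylated imprints, which measured 6.35, 6.41, 6.02 and 6.65 in Cebpa Δ/Δ and 6.77, 6.75 and 7.43 in Cebpa fl/fl. The genotypes did not overlap, and the log2 difference was -0.62 ± 0.22 (SE). Dnmt3b and Dnmt3a, the DNA methyltransferases that set new methylation, had log2 differences of -0.30 ± 0.09 and -0.21 ± 0.07 (SE), under the 1.5-fold threshold. The adjusted p of these 3 genes also missed 0.05 in limma, as for every gene.

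Of 22 mTOR and PI3K pathway genes, in HSCs a known target of the cluster's microRNAs, 0 were past the thresholds in either direction and the median was -0.09. The smallest p-values were those of Inpp5d, Foxo1 and Pik3cd, with log2 differences of -0.27 ± 0.11, 0.36 ± 0.17 and -0.34 ± 0.17 (SE). The 20 Notch pathway genes, which Dlk1 is related to, gave 0 calls and a median of -0.01, and Dll1, Hes1 and Hes5 had log2 differences of 0.13, -0.35 and 0.07. Of 10 thyroid hormone genes, 1 was higher. It was Slc16a10, a transporter of thyroid hormone and aromatic amino acids, with 6.33 ± 0.14 in Cebpa Δ/Δ and 5.38 ± 0.25 in Cebpa fl/fl (SD, n = 4 and 3), whereas Rxrb and Rxra had log2 differences of -0.23 and 0.20. The 14 microRNA processing genes gave 0 calls and a median of -0.12, with Ddx17, Ago3 and Drosha at -0.19, -0.24 and 0.14.

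Markers of other cell types differed between the genotypes in the same arrays. The mean of 12 erythroid markers was 9.25, 8.24, 9.10 and 8.30 on Cebpa Δ/Δ arrays 1 to 4 and 6.10, 7.17 and 6.11 on Cebpa fl/fl arrays 1 to 3, and 12 of 12 were higher at the study's thresholds. The mean of 12 neutrophil markers was 4.56, 4.61, 5.45 and 5.06 in Cebpa Δ/Δ and 8.19, 8.70 and 7.21 in Cebpa fl/fl, and 10 of 12 were lower. Of 10 macrophage markers 4 were higher, with means from 5.52 to 6.44 in Cebpa Δ/Δ and from 5.11 to 5.19 in Cebpa fl/fl. Among 8 lymphoid and 6 megakaryocyte markers 0 were past the thresholds. The 13 HSC markers measured, which check the label of the sort, gave 0 calls, with 13 of 13 lower in their mean in Cebpa Δ/Δ, a median log2 difference of -0.29 and a list mean of 7.98, 8.43, 7.65 and 8.53 in Cebpa Δ/Δ and 8.34, 8.42 and 8.54 in Cebpa fl/fl. Kit, the gene for the receptor c-Kit used in the sort, did not overlap between genotypes, at 10.09 ± 0.27 in Cebpa Δ/Δ and 10.42 ± 0.04 in Cebpa fl/fl (SD, n = 4 and 3), a log2 difference of -0.34.

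Dlk1 and Meg3 are also known from stromal cells. Of 15 stromal and endothelial markers 3 were higher, and the mean of the list was 5.40 to 5.50 in Cebpa Δ/Δ and 5.08 to 5.36 in Cebpa fl/fl. Pdgfrb, a receptor of perivascular cells, averaged 6.37 ± 0.27 in Cebpa Δ/Δ and 5.42 ± 0.20 in Cebpa fl/fl (SD, n = 4 and 3). Cxcl12, the chemokine that holds HSCs in the marrow, measured 7.34, 7.03, 7.07 and 7.53 in Cebpa Δ/Δ and 5.22, 7.07 and 5.99 in Cebpa fl/fl, and Sparc, a matrix protein, measured 7.13, 7.33, 7.92 and 7.13 in Cebpa Δ/Δ and 5.83, 7.25 and 5.54 in Cebpa fl/fl. These 2 genes overlapped between genotypes through Cebpa fl/fl array 2, on which Dlk1 was the highest of the genotype. Among the Cebpa Δ/Δ arrays they did not follow Dlk1. Cxcl12 was lowest there on array 2, on which Dlk1 was highest, and Sparc was highest on array 3, on which Dlk1 was lowest. Pdgfrb and the mean of the list were highest on array 2 of either genotype, as was Dlk1. The collagens Col1a1, Col1a2 and Col3a1 and the markers Pdgfra, Dcn, Lum and Postn had log2 differences from -0.04 to 0.07. The rest of the list lay outside that range, with Lepr at 0.23, Cdh5 at 0.18, Pecam1 at 0.17, Emcn at -0.08 and Kdr at -0.24.

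Within Cebpa Δ/Δ the arrays were ordered differently by the erythroid mean than by Dlk1 or Meg3. Dlk1 was highest (9.97) on array 2, on which the erythroid mean was lowest (8.24), and Meg3 was highest (10.24) on array 4, with an erythroid mean of 8.30. Within Cebpa fl/fl, Dlk1 and the erythroid mean were both highest on array 2. The mean of the HSC markers was highest on arrays 4 (8.53) and 2 (8.43) within Cebpa Δ/Δ, as were Dlk1 and Meg3. Within Cebpa fl/fl the HSC mean was highest on array 3 (8.54). The part of any of these cell types in the values of the cluster was not tested.

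**Figure D5:**
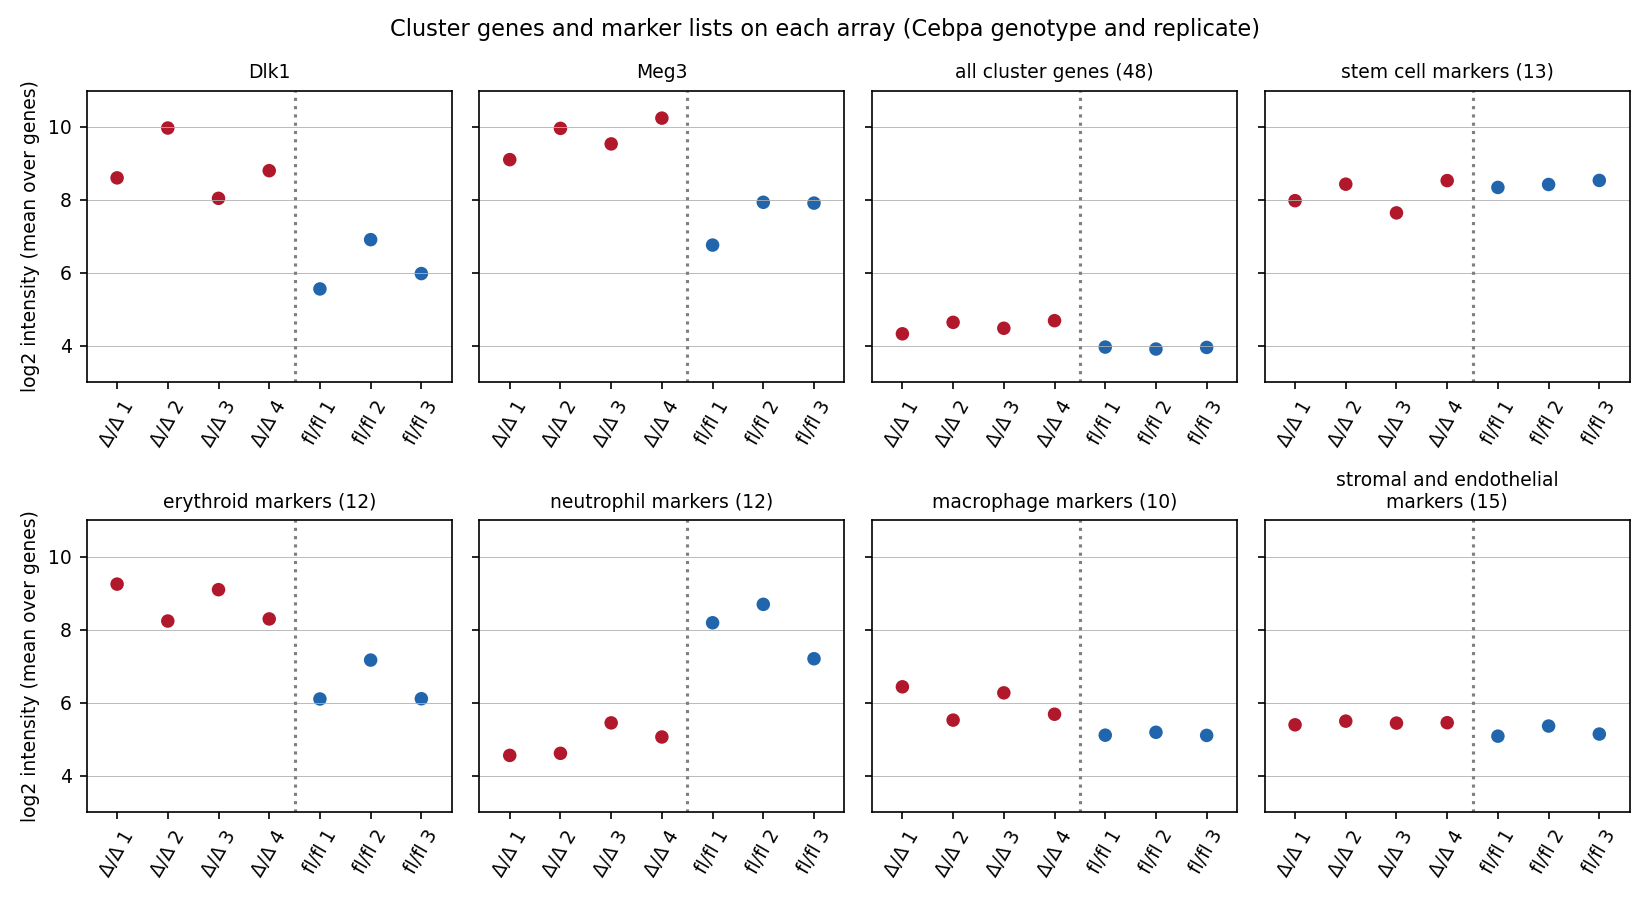
Log2 intensity on each array (points, Cebpa Δ/Δ red and left of the dotted line, Cebpa fl/fl blue) of Dlk1, of Meg3 and, as means over the genes of a list, of the 48 members and of 5 marker lists. The erythroid list lies at 8.24 to 9.25 in Cebpa Δ/Δ and 6.10 to 7.17 in Cebpa fl/fl, the neutrophil list the other way round, and the HSC list overlaps.

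The promoters of the cluster were read for the site that C/EBP proteins bind. RefSeq gives 6 start windows of 300 bases for Dlk1, Meg3 (2 windows), Rian, Mirg and Dio3, from 250 bases before to 50 after the start. The C/EBP motif TTGCNNAA, in which N is any base and which was searched on both strands (TTNNGCAA on the other), was found in 0 of the 6, against 10.8% of 32851 windows of all genes. The cyclic AMP response element TGACGTCA, the same on both strands, was found in 1 of the 6 and in 1.79% of all windows. The window that held it is that of Meg3 at chr12:109540746-109541045 (build GRCm38.p6, plus strand), shown because Meg3 starts the maternal transcript, with the element in capitals:
Meg3 start window: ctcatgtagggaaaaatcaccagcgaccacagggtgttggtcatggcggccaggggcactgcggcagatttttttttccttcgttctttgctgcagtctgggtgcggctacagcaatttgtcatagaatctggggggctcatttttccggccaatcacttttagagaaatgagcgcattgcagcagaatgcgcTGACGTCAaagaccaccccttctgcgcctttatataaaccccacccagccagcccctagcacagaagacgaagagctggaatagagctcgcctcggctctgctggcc
This window holds 13 CpG pairs, that of Dlk1 9, the other window of Meg3 1, that of Rian 0, that of Mirg 10 and that of Dio3 25, against a median of 7 over all windows. The letters of these windows say nothing of other sites outside them and do not measure binding. The study mapped C/EBPα binding by ChIP-seq in stem and progenitor cells, and those bound regions were not compared with the cluster here. With only 6 windows, the 0 with the C/EBP motif cannot be told apart from the share over all windows.

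Genes whose values moved like those of Meg3 within the genotypes were found by Pearson's correlation over the 7 arrays after the mean of each genotype had been subtracted. The nearest 5 outside chromosome 12 were Lsr (0.998), Hoxa2 (0.992), Myo1e (0.989), Itfg2 (0.984) and Alkbh2 (0.982), picked as the highest of all genes, so these values are a description. Like Meg3 they were lowest on array 1 of either genotype, but between genotypes their log2 differences were small, from -0.19 to 0.29.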

How the data were processed

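Deposited intensity values had been made by the authors with RMA, a procedure of background correction, quantile normalisation and probe set summary that hides any difference in RNA content per cell. RNA had been amplified from small amounts with a NuGEN kit. The values were on a linear scale, and log2 was taken without a pseudocount. The genome build behind the probe annotation is not given in the sources used here. Of 35556 probe sets, 21789 had 1 gene symbol, 1621 several and 12146 none in the annotation table. Symbols were updated by Entrez number (21698) or by name (68) through RefSeq (GRCm38.p6), and the table lacked the other 23. Genes with several probe sets (999) were read from the one with the highest mean, and each member had 1. Array medians lay between 46.2 and 50.4, 0 pairs of arrays were identical, and 0 columns were left unused. The number of arrays limits the precision.

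All 19938 genes were fitted in R 4.3.3 by limma 3.58.1 (lmFit, then eBayes) for the difference of Cebpa Δ/Δ from Cebpa fl/fl, with Benjamini-Hochberg adjustment at 0.05 and genotype as the only term. The labels speak of triplicates for each genotype, whereas 4 and 3 samples are listed, each taken as 1 mouse. The fit was tested on simulated data. The members and lists were chosen with earlier results of these data known. Named were all members other than microRNA and small nucleolar RNA genes, the 10 of these with the smallest p and any over 1.5-fold, the 3 members of each other list with the smallest p, Cebpa and the 5 genes most like Meg3. Others were named after their values were seen. Alternatives left out arrays or changed the scaling, the handling of low values, the probe sets, the variance model or the block.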

Additional observations from a re-analysis of the deposited data

Results flagged for a closer look

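Of the 48 members, 9 had a Cebpa Δ/Δ array that stood apart from the other 3 by a gap test. By chance the test flags about 1 in 20 groups of untied values, and that rate does not hold where arrays share a value. Mir136 (3.66), Mir668 (6.43) and Mir541 (3.46) stood high on array 2, Mir300 (3.56) and Mir381 (4.00) on array 3, and Mir431 (5.75), AF357341 (3.60) and Mir329 (4.41) on array 4. Dio3 stood low on array 3 (4.05). The range over the 4 arrays was only 0.019 log2 units for Mir431 and 0.064 for Dio3, and for Mir431, Mir300, Mir668, Mir541 and Dio3 the other 3 arrays held the same value. None of the 9 members past the study's thresholds was among them.

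The probe set annotated to both the small nucleolar RNA gene AF357355 and its host Rian was in no comparison, because it names 2 genes. It measured 5.54, 6.75, 7.82 and 6.39 in Cebpa Δ/Δ and 3.52, 3.54 and 3.29 in Cebpa fl/fl, without overlap, a log2 difference of 3.18 ± 0.51 (SE) that was larger than that of any single-gene member. The probe set shared by Mirg and Mir410 measured 2.38, 3.82, 6.95 and 3.03 in Cebpa Δ/Δ and 2.85, 3.75 and 2.69 in Cebpa fl/fl, with array 3 alone high. The probe set shared by Mir433 and 6430411K18Rik, which RefSeq lists as an older name of Rtl1, had a log2 difference of 0.17.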

How the results depend on the processing

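Of 326 values of 19 named members over 18 alternatives, 297 kept their direction and their side of the study's thresholds, 18 lost a call, 10 gained one and 1 changed direction. Dlk1, Meg3, Rian, DQ267102 and Mir377 kept theirs in every alternative in which they were tested. Leaving out 1 array at a time gave 8 to 11 members higher and 0 lower, a median log2 difference of the members from 0.31 to 0.45, 0 to 3 genes at an adjusted p under 0.05, and log2 differences of Dio3 from -0.016 (without Cebpa fl/fl 3) to 0.041. Raising low values to the 25th percentile lowered the median to 0.080, ended the calls of Mir543, Mir376b and Mir409 and left 6 members higher. Adding 16 before log2 gave a median of 0.18, 6 members higher and 75 of all genes lower. Among genes whose mean over all 7 arrays was above the median gene, 3 of 10 members were higher, with a median of 0.19. DQ267102 was among those 3 only through its Cebpa Δ/Δ arrays. In that setting 5 genes passed the adjusted threshold. With every probe set tested on its own, 499 were lower. Without Cebpa Δ/Δ 3 and Cebpa fl/fl 1 together, which correlated least with the others, 8 members and 169 of all genes were higher. Subtracting array medians gave 12 members higher. Rtl1 lay at the 1.5-fold threshold and fell below it in 5 alternatives, and Mir409 lost its call in 10.

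The deviations of arrays with the same replicate number correlated at -0.02, 0.10 and -0.18. No pairing by number was seen in these values, but arrays of different numbers were not set beside them, so they do not settle it. With the replicate number as a block, 9 members were still higher and the median was 0.31, with the call of Mir409 lost and that of Mir485 gained.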
